A study of Homo sapiens with 6 samples.

Results

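The transcripts examined were those of 10 genes that carry a cell from G1 into S phase: the cyclins CCND2, CCND3, CCNE1, CCNE2 and CCNA2, the kinases CDK6 and CDK2, and the kinase inhibitors CDKN1B, CDKN2C and CDKN2D. They were picked by name from the 61541 genes of the count file, where each name matched 1 gene, and all 10 passed the filter on low counts. The RNA came from H9, an established human line of cutaneous T-cell lymphoma whose genotype is labelled WT. H9 is a clonal derivative of the HuT 78 line, so that all libraries stand for 1 clone. Cells received the vehicle DMSO or AZD4573, a selective inhibitor of CDK9, for 4 h in the labels of the AZD4573 libraries, while no time is given for DMSO. Each group held 3 libraries. The labels do not say whether these were separate cultures, so the p-values measure the spread between these libraries, which may be technical.

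In G1, D-type cyclins bind CDK4 or CDK6 and start the phosphorylation of RB, which holds E2F transcription factors in check. Cyclin E with CDK2 continues that phosphorylation as E2F target genes come on, and cyclin A with CDK2 acts through S phase. INK4 proteins such as CDKN2C (p18) and CDKN2D (p19) block CDK4 and CDK6, whereas CDKN1B (p27) binds the cyclin E and cyclin A complexes of CDK2. In T cells, cyclins D2 and D3 and CDK6 are the usual D-type pair partners, and p27 is lowered when T cells enter the cycle. CDK9 with cyclin T releases paused RNA polymerase II into elongation, a step that most protein-coding genes need.

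The promoters below are shown because they belong to a cyclin that was lower upon AZD4573 (CCNA2), to an inhibitor that was higher (CDKN1B) and to a cyclin with a smaller decrease (CCNE1). Each is the stretch of 250 bases before the RefSeq start on GRCh38.p14, written 5′ to 3′ along the strand of the gene, with motif matches in capitals. CCNA2 lies on the minus strand (chr4:121823884-121824133), CDKN1B on the plus strand (chr12:12717118-12717367) and CCNE1 on the plus strand (chr19:29811741-29811990).
CCNA2: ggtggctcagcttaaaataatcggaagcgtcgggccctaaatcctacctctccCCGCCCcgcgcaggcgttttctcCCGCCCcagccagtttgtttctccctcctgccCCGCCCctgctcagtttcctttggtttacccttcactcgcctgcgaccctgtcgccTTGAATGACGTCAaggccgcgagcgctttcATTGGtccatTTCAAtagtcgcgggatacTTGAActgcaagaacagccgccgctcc
CDKN1B: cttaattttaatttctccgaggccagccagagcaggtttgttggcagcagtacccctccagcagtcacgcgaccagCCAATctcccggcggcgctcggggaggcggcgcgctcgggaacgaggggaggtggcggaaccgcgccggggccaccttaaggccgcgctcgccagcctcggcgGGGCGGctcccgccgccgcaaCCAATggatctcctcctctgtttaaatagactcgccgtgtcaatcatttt
CCNE1: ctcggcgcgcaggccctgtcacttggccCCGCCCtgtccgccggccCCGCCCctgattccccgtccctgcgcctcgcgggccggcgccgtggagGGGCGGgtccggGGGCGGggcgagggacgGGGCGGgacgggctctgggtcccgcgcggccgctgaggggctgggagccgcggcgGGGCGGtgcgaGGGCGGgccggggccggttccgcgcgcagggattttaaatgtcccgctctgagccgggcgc
The motifs were searched on both strands. The CCAAT box, spelled by its name, was in 32.0% of 34788 RefSeq promoters of the same length. A loose E2F site, TTTNNCGC, was in 5.89%, the core of the cell cycle genes homology region (CHR), TTGAA, in 30.0%, the cAMP response element (CRE), TGACGTCA, in 1.64%, and the GC box, GGGCGG, in 42.6%. The CCNA2 promoter held 1 CCAAT box, 3 CHR cores, 1 CRE and 3 GC boxes. A CHR core and the CRE lie end to end there, as a single run of capitals. That of CDKN1B held 2 CCAAT boxes and 1 GC box, and that of CCNE1 held 7 GC boxes and no match to the other motifs. RefSeq promoters were matched for 7 of the 10 genes. A match describes these letters and is not a bound site.

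Total counts ranged from 70367303 to 76571157 with DMSO and from 52101868 to 63795185 with AZD4573. A count of 0 allowed up to 0.0576 CPM (counts scaled by the library total) in the shallowest library, and such limits cover counting error only. HEXIM1, an inhibitor of CDK9 whose transcript drops when CDK9 is blocked, went from 117 ± 4.09 to 10.4 ± 0.361 CPM (SD, n = 3). The other checks of the treatment were higher, CDK9 from 65.4 ± 1.55 to 122 ± 1.32 CPM and CCNT1 from 60.8 ± 4.67 to 139 ± 11.5 CPM. Mitochondrially encoded mRNAs, which RNA polymerase II does not make, took 3.13% ± 0.0929 of the counts with DMSO and 4.85% ± 0.162 with AZD4573 (SD, n = 3). Among 12 T cell markers (11 tested), 9 passed the test (adjusted p under 0.05) as higher and 1 as lower, against 37.3% and 37.4% of all tested genes, and their summed level was 1196 to 1232 CPM with DMSO and 1584 to 1675 CPM with AZD4573. The T cell marker CD2 was nearly absent (0.105 and 0.0120 CPM with DMSO and AZD4573), and CD7 was barely expressed (0.602 and 0.601 CPM). CD4 (3.83 and 6.98 CPM) and CD28 (5.85 and 4.35 CPM) were low. Of the 5 B cell markers (4 tested) 1 was higher and 1 lower, CD79A at 57.8 and 93.6 CPM and CD79B at 5.66 and 3.46 CPM with DMSO and AZD4573. The summed B cell list was at 61.0 to 67.0 CPM with DMSO and 92.5 to 103 CPM with AZD4573. Epithelial and fibroblast markers, nearly all EPCAM, summed to 156 to 172 CPM with DMSO and 136 to 141 CPM with AZD4573. Myeloid markers summed to at most 1.09 CPM in any library, and erythroid markers, 2 of 3 of them at 0 counts in every library, to at most 0.0136 CPM. The part of these shifts in the results below was not tested.

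Of the 10 genes, 7 had lower and 3 had higher levels with AZD4573 at an adjusted p under 0.05 (edgeR's quasi-likelihood test, Benjamini-Hochberg adjustment over 17678 genes), against 37.4% of all tested genes lower and 37.3% higher. With a fold change of at least 1.5 as well, CCNE2 and CCNA2 were lower and CCND2 and CDKN1B higher, which makes 2 in each direction, against 23.7% of all genes lower and 22.7% higher. The counts at 1.5-fold lie near the shares of all genes and are not a result about the 10 genes. In 7 genes each AZD4573 library lay below each DMSO library and in 3 above, against 38.7% and 39% of all genes. The median log2 fold change of the 10 genes was -0.20 and that of all tested genes 0.03. Levels are given in CPM after TMM normalization, which assumes that most genes keep their share, and they are shares of the RNA, not amounts per cell. In bulk RNA, fewer cells in a phase and less of the transcript per cell cannot be told apart.

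**Figure D1:**
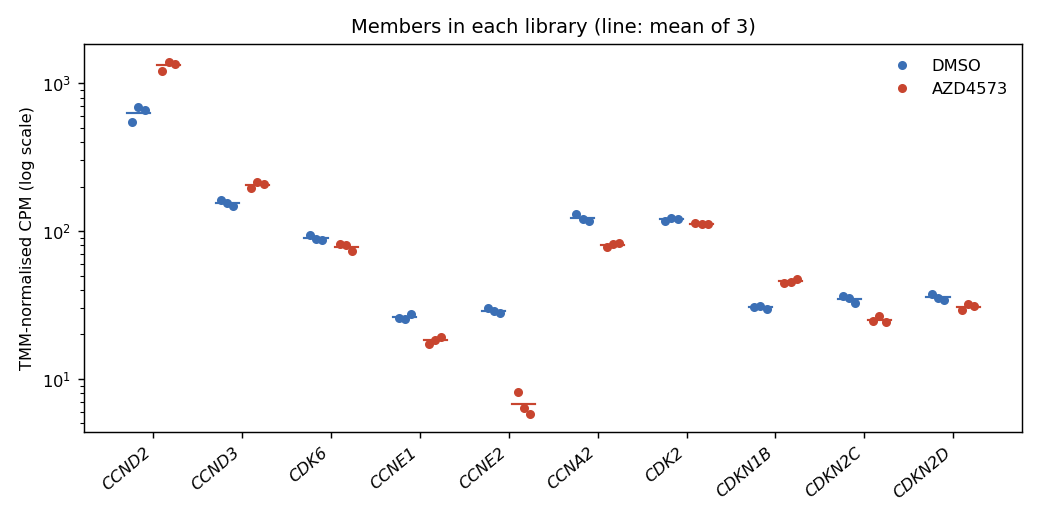
TMM-normalized level in CPM on a log axis of each of the 10 genes in the 3 DMSO and 3 AZD4573 libraries, with points for libraries and a short line for each group's mean. CCND2 lies at the top in both groups, CCNE2 falls to the bottom with AZD4573, and the CDK2 groups differ by the smallest step.

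The D-type cyclins were higher upon AZD4573, and CCND2 was the gene with the largest increase among the 10. CCND2 (ENSG00000118971, chr12:4269771-4305353, plus strand, GRCh38, 5 exons in the canonical transcript) encodes cyclin D2. Its level was 542, 691 and 658 CPM in the DMSO libraries and 1212, 1399 and 1347 CPM in the AZD4573 libraries. The lowest treated library was above the highest control, and DMSO replicate 1 stood below the other controls. CCND2 rose 2.09-fold, from 631 ± 78.3 to 1320 ± 96.4 CPM (SD, n = 3), with a log2 fold change of 1.07 (SE 0.0790, edgeR adjusted p = 3.7e-08). Of all tested genes, 85.5% had a lower log2 fold change. CCND2 shares 999 of the 6493 bases of its canonical transcript with ENSG00000285901 on the same strand, whose counts were at most 1.43% of those of CCND2 in any library.

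CCND3 (ENSG00000112576, chr6:41934934-42050357, minus strand, 5 exons) encodes cyclin D3 and rose by less. It was at 162, 156 and 148 CPM with DMSO and at 197, 214 and 208 CPM with AZD4573. The groups did not overlap, and CCND3 increased 1.33-fold, below the threshold of 1.5 (log2 fold change 0.41, SE 0.0473, edgeR adjusted p = 3.3e-06). Within a library, the ratio of CCND2 to CCND3 counts does not depend on how libraries are scaled. That ratio was 3.35, 4.44 and 4.44 with DMSO and 6.17, 6.55 and 6.47 with AZD4573, on average 1.58-fold higher. The groups did not overlap, with p = 0.1 in an exact two-sided permutation test, the smallest that 3 against 3 libraries can give (0.133 adjusted over 4 pairs).

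Both kinases among the 10 genes were slightly lower after TMM normalization. CDK6 (ENSG00000105810, chr7:92604921-92836573, minus strand, 8 exons), a partner of D-type cyclins, was at 93.6, 88.4 and 87.0 CPM with DMSO and at 81.4, 80.3 and 73.0 CPM with AZD4573. The groups did not overlap, and the log2 fold change was -0.20 (SE 0.0526, edgeR adjusted p = 0.004). CDK4, their other kinase and outside the 10 genes, went from 136 to 152 CPM (log2 fold change 0.16, SE 0.0468, edgeR adjusted p = 0.0076). CDK2 (ENSG00000123374, chr12:55966781-55972789, plus strand, 7 exons), the partner of cyclins E and A, was at 117, 122 and 121.5 CPM with DMSO and at 113, 111 and 111 CPM with AZD4573. Its treated libraries were all below the controls by a small step (log2 fold change -0.10, SE 0.0410, edgeR adjusted p = 0.039). That call was lost in 6 alternative settings, with adjusted p of 0.063 with a replicate block, 0.17 with at least 10 counts required in every library, and 0.079 to 0.11 without DMSO replicate 2, DMSO replicate 3, AZD4573 replicate 2 or AZD4573 replicate 3. The ratio of CDK6 to CDK2 was 0.802, 0.725 and 0.716 with DMSO and 0.719, 0.721 and 0.656 with AZD4573. These ranges overlapped (p = 0.3, exact two-sided permutation test), and the log2 difference of -0.10 moved from -0.13 to -0.05 as single libraries were left out, with the smallest difference without DMSO replicate 1.

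**Figure D2:**
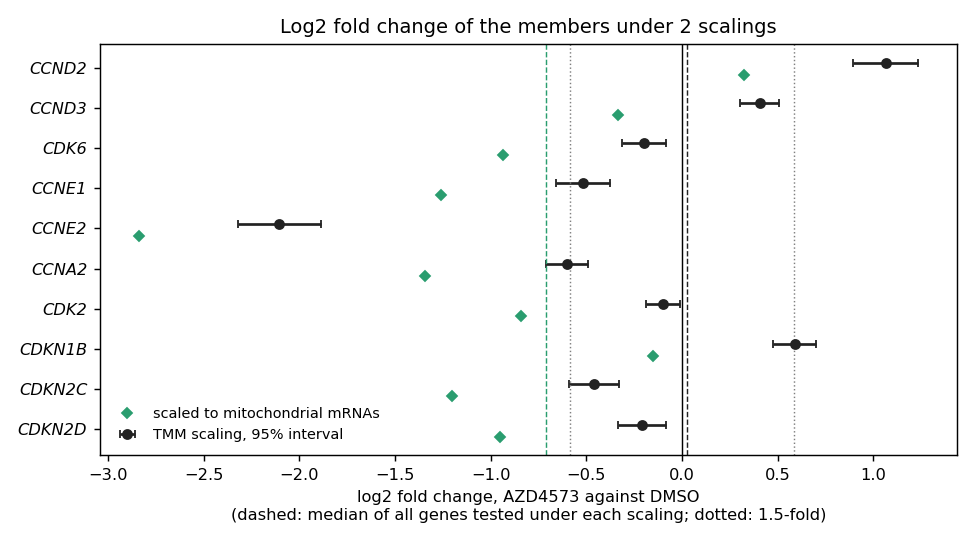
Log2 fold change of AZD4573 against DMSO for each of the 10 genes with TMM scaling (circles, 95% intervals from edgeR's quasi-likelihood fit) and with scaling to mitochondrially encoded mRNAs (diamonds), with dotted lines at 1.5-fold and dashed lines at the median of all genes under each scaling (0.03 and -0.71). With TMM, CCNE2 (-2.10) and CCND2 (1.07) lie far beyond the dotted lines and CCNA2 (-0.60) and CDKN1B (0.59) just past them, while with mitochondrial scaling CCND3 and CDKN1B lie below 0.

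The E and A cyclins were lower in all treated libraries, to unequal extents. CCNE2 (ENSG00000175305, chr8:94879770-94896678, minus strand, 12 exons), which encodes cyclin E2, was at 30.03, 28.9 and 27.8 CPM with DMSO and at 8.12, 6.39 and 5.75 CPM with AZD4573. Its 3 treated libraries held 413, 364 and 351 counts against 2356, 2113 and 2046 in the controls. CCNE2 was 4.30-fold lower (log2 fold change -2.10, SE 0.101, edgeR adjusted p = 6.3e-10), and 2.46% of the tested genes fell by more. It shares 1522 of the 2674 bases of its canonical transcript with INTS8 on the opposite strand, and the counting ignored strand. INTS8 was lower as well (log2 fold change -0.74, edgeR adjusted p = 7.6e-08). Reads of the 2 genes cannot be told apart there, and their summed level went from 55.2 ± 1.79 to 22.5 ± 1.01 CPM (SD, n = 3), 2.45-fold lower.

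CCNE1 (ENSG00000105173, chr19:29811991-29824312, plus strand, 12 exons) encodes cyclin E1, and its GC-rich promoter is shown above. It was at 25.8, 25.2 and 27.7 CPM with DMSO and at 17.1, 18.4 and 19.3 CPM with AZD4573. The groups did not overlap, and CCNE1 was 1.43-fold lower, under the threshold (log2 fold change -0.52, SE 0.0658, edgeR adjusted p = 8.2e-06). The ratio of CCNE1 to CCNE2 was 0.859, 0.875 and 0.996 with DMSO and 2.11, 2.89 and 3.36 with AZD4573. CCNE1 held fewer counts than CCNE2 in each control and more in each treated library, with a ratio 3.01-fold higher on average and no overlap (p = 0.1, exact two-sided permutation test, 0.133 adjusted over 4 pairs). Counts shared between CCNE2 and INTS8 enter this ratio.

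CCNA2 (ENSG00000145386, chr4:121816444-121823883, minus strand, 8 exons) encodes cyclin A2, and its promoter above carries CCAAT box, CHR and CRE matches. It was at 131, 122 and 117 CPM with DMSO and at 78.3, 81.5 and 83.0 CPM with AZD4573. The treated libraries were all lower, and CCNA2 was 1.52-fold lower (log2 fold change -0.60, SE 0.0504, edgeR adjusted p = 1.3e-07). The 1.5-fold threshold lies just inside this value, and the call was lost without DMSO replicate 1 (-0.57), without AZD4573 replicate 1 (-0.58) and with at least 10 counts required in every library (-0.57), although the adjusted p stayed under 0.05. CCNA2 shares 254 of 2748 bases with EXOSC9 on the opposite strand, and for the summed counts of both genes the log2 fold change was -0.51, which is under the threshold.

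**Figure D3:**
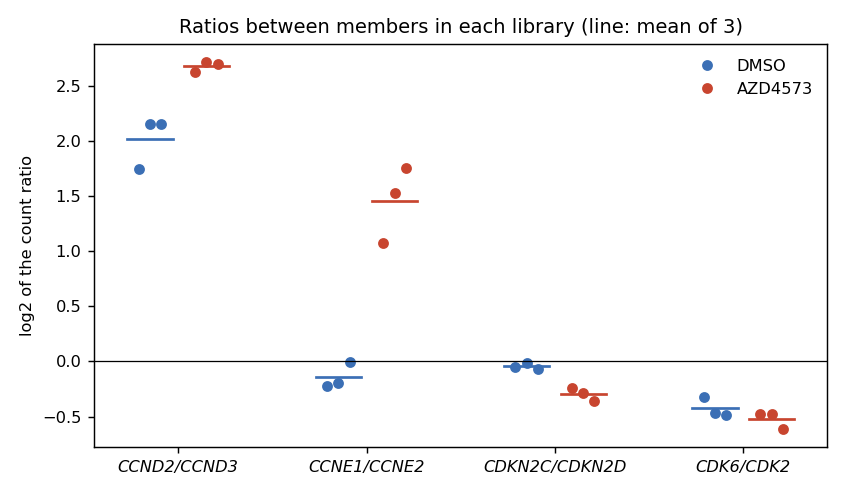
Log2 of the ratio of counts within each library (points, with a short line for each group's mean) for CCND2 to CCND3, CCNE1 to CCNE2, CDKN2C to CDKN2D and CDK6 to CDK2, in 3 DMSO and 3 AZD4573 libraries. The groups do not overlap for the first 3 pairs, and they overlap for CDK6 to CDK2.

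The inhibitors moved in both directions. CDKN1B (ENSG00000111276, chr12:12685498-12722369, plus strand, 3 exons), which encodes p27, was at 30.4, 30.9 and 29.9 CPM with DMSO and at 44.5, 45.0 and 47.7 CPM with AZD4573. Controls and treated libraries did not overlap, and CDKN1B was 1.5-fold higher (log2 fold change 0.59, SE 0.0519, edgeR adjusted p = 2.1e-07). The log2 fold change fell under the threshold without DMSO replicate 1 (0.58), DMSO replicate 3 (0.56) or AZD4573 replicate 3 (0.55), with library size only (0.48) and without a filter on low counts (0.55). It turned to -0.15 with mitochondrial scaling (edgeR adjusted p = 0.058).

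The INK4 inhibitors were lower. CDKN2C (ENSG00000123080, chr1:50960745-50974634, plus strand, 2 exons) was at 36.1, 35.1 and 32.7 CPM with DMSO and at 24.8, 26.5 and 24.2 CPM with AZD4573. The groups were apart, with a 1.38-fold decrease (log2 fold change -0.46, SE 0.0602, edgeR adjusted p = 1e-05). CDKN2D (ENSG00000129355, chr19:10566460-10569059, minus strand, 2 exons) was at 37.4, 35.3 and 34.3 CPM with DMSO and at 29.3, 32.2 and 31.1 CPM with AZD4573. It was 1.16-fold lower (log2 fold change -0.21, SE 0.0582, edgeR adjusted p = 0.0054). The ratio of CDKN2C to CDKN2D was 0.965, 0.993 and 0.956 with DMSO and 0.847, 0.822 and 0.778 with AZD4573, lower in each treated library than in any control (log2 difference -0.25, p = 0.1, exact two-sided permutation test, 0.133 adjusted over 4 pairs).

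Scaling moved all 10 values together. When libraries were scaled to the 13 mitochondrially encoded mRNAs, the median of all tested genes was -0.71 and not 0.03. This scaling assumes that mitochondrially encoded mRNAs kept their amount per cell, which was not tested. On that scale CCND3 was lower (log2 fold change -0.33, edgeR adjusted p = 8e-05) and CDKN1B, as given above, was at -0.15, while CCND2 was still higher (0.33, edgeR adjusted p = 0.00051). CDK2 (-0.84, edgeR adjusted p = 1.2e-09) and CDK6 (-0.93, edgeR adjusted p = 3.6e-09) were past 1.5-fold on that scale, where the median of all genes was itself past it. The other 5 genes were lower under both scalings as well. Relative to the median of all genes the order was kept, with CCND2, CDKN1B and CCND3 above it and CCNE2 farthest below.

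CCND2 held the largest share of the counts of the 10 genes in every library. Its share of them was 45.0%, 51.8% and 51.3% with DMSO and 67.1%, 69.5% and 69.1% with AZD4573. The 10 genes held 0.123% to 0.139% of all counts with DMSO and 0.176% to 0.193% with AZD4573. Without CCND2, the other 9 held 0.0653% to 0.0679% with DMSO and 0.0577% to 0.0590% with AZD4573, so that the total without CCND2 was smaller with AZD4573. CCNE2 went from 2.27% to 0.354% of the counts of the 10 genes, and CDKN1B stayed at 2.39% and 2.38%. Shares of a sum are tied to each other, and the rise of CCND2 lowers the others' shares.

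**Figure D4:**
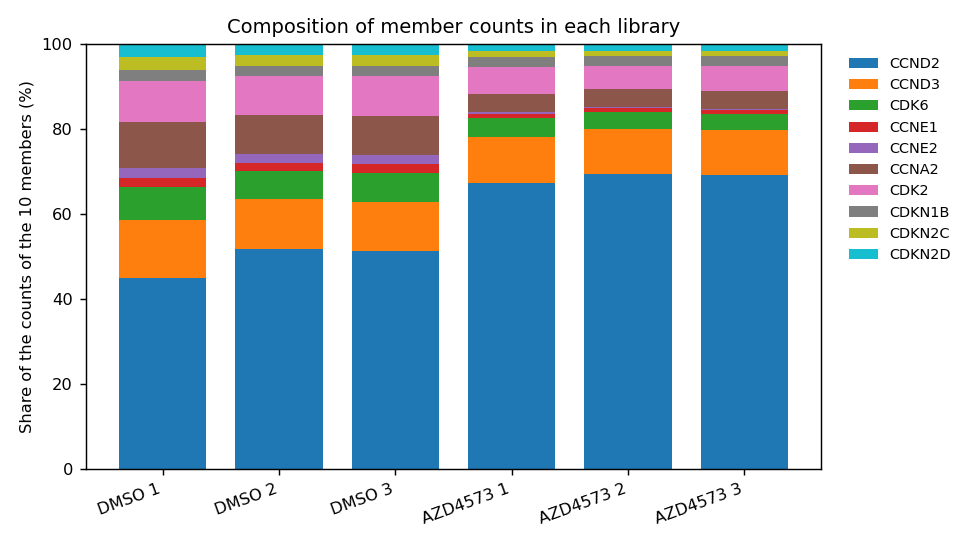
Share of each gene in the summed counts of the 10 genes, in percent, as stacked bars for 3 DMSO and 3 AZD4573 libraries. CCND2 goes from 45.0% to 51.8% with DMSO to between 67.1% and 69.5% with AZD4573.

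Levels of different genes were compared per kb of the canonical transcript, as CPM per kb. With DMSO the order was CCND2 (97.1), CCND3 (76.7), CDK2 (53.6), CCNA2 (44.7), CDKN2C (34.8), CDKN2D (25.03), CCNE1 (13.4), CDKN1B (12.6), CCNE2 (10.8) and CDK6 (7.69). Neighbours did not overlap over the 3 libraries. With AZD4573, CDKN1B (19.0 CPM per kb) ranked above CCNE1 (9.37), and CCNE2 (2.52) ranked below CDK6 (6.71), whereas the places of the other 6 genes stayed the same. The order depends on the transcript taken: per kb of all merged exons, CDKN1B was last with DMSO at 3.29 CPM per kb, and CCND2 was first in both groups by either length. Pseudogenes named after these cyclins (CCND2P1, CCND3P1 and CCND3P2) had 0 counts in every library.

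Genes of the same pathway outside the 10 were counted in the same fit. Of 17 further G1/S partners and regulators, 14 were tested, of which 8 passed as lower and 4 as higher (adjusted p under 0.05), against 37.4% and 37.3% of all tested genes, and their median log2 fold change was -0.47 against 0.03 for all genes. The largest changes were CDK7, the kinase that activates other CDKs and is part of TFIIH, at -1.79 (edgeR adjusted p = 1.2e-09), CCND1, cyclin D1, at 1.52 (edgeR adjusted p = 0.00035), and FBXW7, which targets cyclin E for degradation, at -1.22 (edgeR adjusted p = 7e-09). CCND1 was barely expressed, at 0.402 CPM with DMSO and 1.16 CPM with AZD4573, far below CCND2 and CCND3. CCNA1, CDKN2A and CDKN2B had 0 counts in every library, and were singled out for that after their values were seen.

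Of 13 genes of the RB and E2F family, 6 were lower and 5 higher, with a median of -0.02, and both counts lie near those shares of all genes. RB1 was barely expressed, at 0.478 CPM with DMSO and 0.760 CPM with AZD4573, and did not pass the test. With DMSO, RBL1 was at 91.1 CPM and RBL2 at 90.5 CPM. E2F8 (-1.87) and E2F7 (-1.37), the atypical repressors of E2F targets, and RBL1 (p107, -1.27) had the largest changes. Of 26 S-phase genes known to be driven by E2F factors, 14 were lower and 8 higher at the same threshold (all genes, 37.4% and 37.3%), with a median of -0.19. RRM2, a subunit of ribonucleotide reductase, was at -1.66 on the log2 scale, GINS1, part of the replicative helicase, at -1.39, and GMNN (geminin), which blocks relicensing of origins, at -1.27. Of 13 G2/M cyclins and kinases, 10 were lower, against 37.4% of all genes, and the other 3 did not pass the test, with a median of -0.35. CDC20, the activator of the anaphase-promoting complex, was at -0.95, the mitotic kinase AURKA at -0.76 and CCNB1, cyclin B1, at -0.64. With mitochondrial scaling, 12 of 14 partners, 11 of 13 RB and E2F genes, 26 of 26 S-phase genes and 13 of 13 G2/M genes were lower, where all genes had a median of -0.71.

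**Figure D5:**
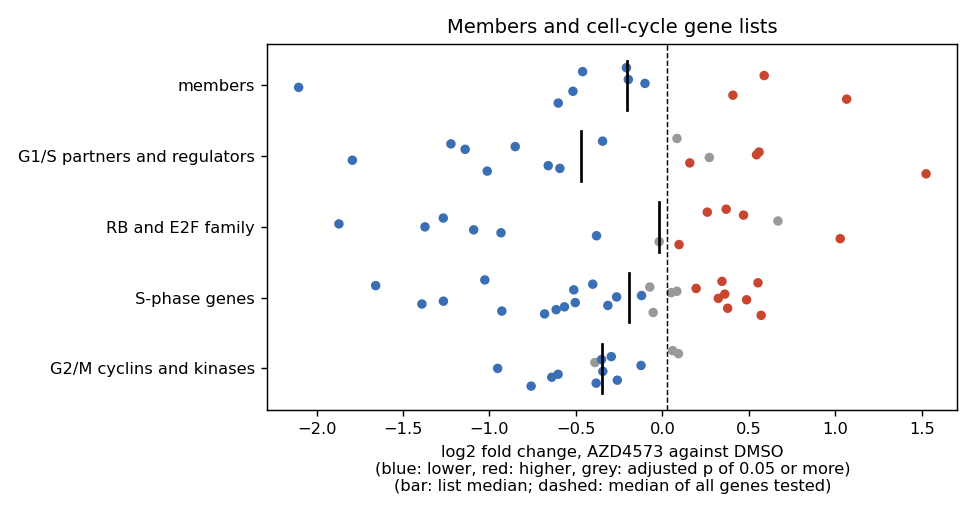
Log2 fold change of AZD4573 against DMSO for single genes, coloured blue for lower, red for higher and grey for an adjusted p of 0.05 or more, for the 10 genes and 4 further cell cycle lists, with a bar for each list's median and a dashed line at the median of all genes (0.03). The medians are -0.20 for the 10 genes, -0.47 for G1/S partners, -0.02 for the RB and E2F family, -0.19 for S-phase genes and -0.35 for G2/M genes.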

How the data were processed

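Bulk RNA-seq of H9 cells covered 3 DMSO and 3 AZD4573 libraries, each grouped by its label. The submitters' processing notes name Cutadapt 2.3, STAR 2.7.8a, RSEM 1.3.3 and GRCh38. The deposited values are RSEM expected counts per gene that the authors estimated at default parameters, which ignore strand. They are whole numbers and not normalized. On library type the sources differ, with poly(A) selection in the labels and rRNA depletion in the supplement. Of 61546 entries, 5 are no Ensembl genes and held 0 counts.

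In R 4.3.3, the expected counts were filtered (edgeR 4.0.16, filterByExpr, minimum count 10), normalized by TMM and compared by edgeR's quasi-likelihood test without a replicate block, with Benjamini-Hochberg adjustment over 17678 genes. Calls needed a 1.5-fold change and an adjusted p under 0.05. Errors are SD over libraries. Ratios within 4 pairs of genes, with 1 added to each count, were compared by exact permutation tests. Alternative settings were library size only, RLE factors, scaling to 13 mitochondrially encoded mRNAs, no filter, a minimum of 10 counts in all libraries, leaving out each library, a replicate block, DESeq2 1.42.0, unadjusted p, a fold change of at least 2, and, chosen after seeing the data, counts summed with overlapping genes. The procedure was tested on simulated data. No library copied another of its own group, since chi-square over its degrees of freedom was 5.63 to 21.6 within groups. Libraries of different groups were not compared in this way.

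Coordinates, exons and lengths came from GENCODE release 44 and promoters from RefSeq (GRCh38.p14). All 10 members were named, CDK9, CCNT1 and HEXIM1 were taken as checks of the treatment, and of each pathway list at most the 3 largest changes were given values. Levels of CDK4, RB1 and RBL2 were added after their values were seen. Of the checks of the treatment, HEXIM1 was lower and CDK9 and CCNT1 were higher, as given above. The members and lists were chosen with earlier results of these data known.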

Additional observations from a re-analysis of the deposited data

How the results depend on the processing

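Against 2 genes called lower and 2 called higher, 3 were lower and 1 higher with library size only, where CCNE1 gained a call, the number higher was 1 without a filter on low counts, and the number lower was 1 with at least 10 counts in every library. A fold of at least 2 left 1 lower and 1 higher. With single libraries left out, 1 to 2 were lower and 1 to 2 higher. Counts summed with overlapping genes, an alternative chosen after seeing the data, gave 1 lower. With mitochondrial scaling, 7 were lower and 0 higher at these thresholds, and by adjusted p alone 8 were lower and 1, CCND2, higher, also the number higher at an unadjusted p under 0.05. CCND3 reversed to -0.33 and CDKN1B to -0.15 under it. RLE factors, unadjusted p and DESeq2 gave 2 lower and 2 higher. Of 140 values of single genes under alternatives, 122 kept direction and call, 10 lost and 6 gained a call, and 2 reversed. CCNA2 and CDKN1B lie so close to 1.5-fold that small shifts decide their call.

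A replicate block gave 2 lower and 2 higher. Replicate numbers are not stated to pair the libraries, and deviations of equally numbered libraries correlated at -0.01, 0.09 and -0.05, so the numbers were not taken as pairs. The block changed no call at 1.5-fold, while CDK2 lost its adjusted p (0.063). Leaving out single libraries gave log2 differences of 0.53 to 0.73 for CCND2 to CCND3, 1.44 to 1.78 for CCNE1 to CCNE2, -0.28 to -0.22 for CDKN2C to CDKN2D and -0.13 to -0.05 for CDK6 to CDK2. With 3 libraries a group, exact tests cannot go below 0.1. The 351 to 413 counts of CCNE2 with AZD4573 were the lowest of the 10 genes.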
